A study of Mus musculus with 6 samples.

Results

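The 7 genes that encode the CDK inhibitors, *Cdkn1a*, *Cdkn1b*, *Cdkn1c*, *Cdkn2a*, *Cdkn2b*, *Cdkn2c* and *Cdkn2d*, were followed in nascent transcription maps of mouse muscle stem cells (MuSCs). They were taken by symbol from the 14546 genes of the deposited table, and all 7 passed the filter on low values that 12451 genes passed. In the gene body *Cdkn1a* was higher in all 3 libraries of MuSCs deficient for *Kmt5b* than in any control library, as for 12% of the genes tested. Its difference did not pass the test across all genes. *Cdkn1b* was lower in all 3, as for 9.34% of the genes, and its difference passed the test, as for 2.99% of the genes. Of the other 5 genes, all had lower mean gene body values on the log2 scale in the deficient cells, against 46.2% of all genes. None of these 5 differences passed the test.

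Progression through G1 is driven by cyclin-dependent kinases, and CDK inhibitors hold these kinases back. The CIP/KIP proteins p21 (*Cdkn1a*), p27 (*Cdkn1b*) and p57 (*Cdkn1c*) bind complexes of cyclins with several CDKs, whereas the INK4 proteins p16 (*Cdkn2a*), p15 (*Cdkn2b*), p18 (*Cdkn2c*) and p19 (*Cdkn2d*) bind CDK4 and CDK6 alone. In muscle, p21 and p57 are known from myoblasts that leave the cell cycle to differentiate, p27 from slowly dividing stem cells, and p16 from aged stem cells.

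PRO-seq maps RNA polymerases that are engaged in transcription, by labelling and sequencing the RNA they extend, here in isolated nuclei. There were 3 libraries of Ctrl and 3 of *Kmt5b* sKO MuSCs. The cells were proliferating and had been purified with magnetic beads from limb and trunk muscle of adult mice and grown in culture. Ctrl samples carry the genotype Pax7CreERT with the wild-type allele of Suv4-20h1, an older name of *Kmt5b*, and *Kmt5b* sKO samples carry Pax7CreERT with the knockout allele. KMT5B is an enzyme that methylates lysine 20 of histone H4 further from its monomethylated form. The Cre recombinase is thus present in both groups. It is expressed from *Pax7*, a gene of satellite cells, and acts after tamoxifen is given, so that the allele is recombined in cells that express *Pax7*. The labels do not say whether replicates came from separate animals or cultures, and give neither age nor sex, so the p-values measure the spread between these samples.

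Each gene was measured in 1 isoform, over a TSS region (the first 400 nt from the transcription start site) and in a gene body from there to the transcript end. TSS values are RPM, read numbers brought to the same total in each library, and gene body values are TPM, which also divide by length. Values of single libraries are given in the order of replicates 1 to 3. Reads recovered from the values numbered between 926904 and 3246052 in the TSS regions and between 7425433 and 16249797 in the gene bodies per library. A gene was called where limma on log2(value + 0.5) gave an adjusted p (Benjamini-Hochberg) under 0.1. This called 207 genes in the TSS region (116 higher and 91 lower in *Kmt5b* sKO, 95 and 123 after quantile normalization) and 372 in the gene body (200 higher and 172 lower, 221 and 278 after quantile normalization). The targeted gene *Kmt5b* held 34.8 ± 3.98 TPM in Ctrl and 38.5 ± 3.84 TPM in *Kmt5b* sKO gene bodies (SD, n = 3 each), so these values do not check the genotypes, which rest on the labels.

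Markers of myogenic cells were transcribed in all 6 libraries. The summed gene body values of 7 stem and progenitor markers lay between 1532 and 2279 TPM in Ctrl and between 2023 and 2729 TPM in *Kmt5b* sKO MuSCs, with *Pax7* at 38.6 ± 14.0 and 27.8 ± 2.07 TPM (SD, n = 3). *Myod1* held the largest part of these sums, and 3 of the 7 markers had a positive and 4 a negative gene body log2 fold change. The summed values of 8 markers of differentiating muscle cells, among them *Myog* and *Myh3*, lay between 1816 and 3253 TPM in Ctrl and between 3398 and 4482 TPM in *Kmt5b* sKO MuSCs. Those of 18 genes of S phase and mitosis lay between 762.5 and 978 TPM in Ctrl and between 481 and 532 TPM in *Kmt5b* sKO MuSCs. For both of these lists the ranges did not overlap between genotypes. Of the 8 differentiation markers 7 had a positive gene body log2 fold change and *Mymx* a negative one. The values of *Myog*, *Mymk*, *Mymx*, *Ckm* and *Tnnt1* overlapped between genotypes. Only *Acta1*, *Tnnt3* and *Myh3* lay higher in all *Kmt5b* sKO libraries, as did 12% of all genes. In bulk libraries, fewer cells of a type and less transcription per cell cannot be told apart, and the part of these shifts in the values of the CDK inhibitor genes was not tested. Of 5 markers of mature fibres, 5 were listed, with sums between 101 and 269 TPM in Ctrl and, overlapping, between 249 and 540.2 TPM in *Kmt5b* sKO. Fibroblast sums (3 of 5 markers listed) lay between 38.7 and 67.0 TPM in Ctrl and between 45.6 and 51.9 TPM in *Kmt5b* sKO, and endothelial sums (3 of 4 listed) between 2.50 and 4.23 TPM in Ctrl and, without overlap, between 4.38 and 5.05 TPM in *Kmt5b* sKO. Of 4 leukocyte markers *Ptprc* and *Csf1r* were not in the table, and *Cd68* and *Cd14*, of which *Cd68* held the larger part, had sums between 220 and 445 TPM in Ctrl and between 333 and 349 TPM in *Kmt5b* sKO. No listed marker was at 0 in the gene body of any library. Ctrl replicate 3 stood apart from the other Ctrl libraries, with the lowest sum of differentiation markers of the 6 libraries, and the results that turn on it are given with and without it.

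The sequences just upstream of *Cdkn1a* and *Cdkn1b* are shown because the gene body values of these genes did not overlap between the genotypes, in opposite directions. Both are the 250 bases before the RefSeq start on the plus strand of GRCm38.p6, at chr17:29093519-29093768 for *Cdkn1a* and at chr6:134920151-134920400 for *Cdkn1b*. This RefSeq start lies 3 nt upstream of the start of the listed isoform for *Cdkn1a* and coincides with it for *Cdkn1b*. *Cdkn1a* has another RefSeq start, 2793 nt upstream of the start of the listed isoform. Capitals mark the GC box, a site type bound by SP1 and its relatives.
Cdkn1a: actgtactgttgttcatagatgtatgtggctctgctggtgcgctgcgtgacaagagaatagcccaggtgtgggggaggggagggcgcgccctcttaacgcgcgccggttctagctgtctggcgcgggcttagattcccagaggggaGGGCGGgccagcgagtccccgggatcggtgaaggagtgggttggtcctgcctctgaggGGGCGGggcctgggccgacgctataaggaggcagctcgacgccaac
Cdkn1b: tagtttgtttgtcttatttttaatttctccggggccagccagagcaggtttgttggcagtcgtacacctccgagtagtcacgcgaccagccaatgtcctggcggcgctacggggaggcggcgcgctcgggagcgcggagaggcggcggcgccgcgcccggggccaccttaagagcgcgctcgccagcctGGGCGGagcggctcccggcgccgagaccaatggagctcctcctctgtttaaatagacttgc
The letters GGGCGG, searched on both strands, occurred at 2 places before *Cdkn1a*, beginning 104 and 46 nt before the start, and at 1 place before *Cdkn1b*, beginning 61 nt before it. Of 32851 mouse promoters of the same length, 32.7% held them. TATAAA was found in neither sequence (12.4% of promoters hold it), and neither held the E2F letters TTTCGCGC (0.256%) or TTTGGCGC (0.417%). An E-box, CANNTG, lay 187 nt before *Cdkn1a*, as in 66.2% of promoters, and none lay in the window of *Cdkn1b*. Both windows were GC-rich, with 64.8% and 64.4% G or C against a median of 52.4%, and held 19 and 28 CpG dinucleotides against a median of 6. The 250 bases before the other RefSeq start of *Cdkn1a*, not shown, held no GC box, 54% G or C and 2 CpG dinucleotides. RefSeq promoters were matched for 6 of the 7 genes. *Cdkn1c* was not matched.

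*Cdkn1a* encodes p21, the CDK inhibitor best known as a target of p53. The gene lies at chr17:29093772-29100722 on the plus strand of GRCm38, and its gene body of 6550 nt is 72.2% intronic. In the gene body the Ctrl libraries gave 462, 600.3 and 478 TPM, against 859, 706 and 969 TPM for the sKO libraries. All *Kmt5b* sKO libraries thus lay above all Ctrl libraries, as for 12% of the genes tested. The means were 513 ± 75.6 and 845 ± 132 TPM (SD, n = 3), and limma gave a log2 fold change of 0.72 (standard error 0.21, 95% interval 0.23 to 1.20; adjusted p = 0.152), so that the difference did not pass the test. It passed with count models on the recovered reads, at an adjusted p of 0.0505 with edgeR and 0.00248 with DESeq2, and over 16 alternatives the adjusted p ranged from 0.00248 to 0.409.

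The TSS region of *Cdkn1a*, which begins in the untranslated first exon and reaches into the first intron, gave the same order. The Ctrl libraries gave 353, 385 and 330.0 RPM, against 641.5, 423 and 669 RPM for the sKO libraries. The groups did not overlap, as for 10.2% of the genes with all *Kmt5b* sKO libraries above, but *Kmt5b* sKO replicate 2 lay close to the Ctrl libraries. The difference of 0.67 on the log2 scale (standard error 0.24) did not pass the test (adjusted p = 0.228 from limma). The 670 TSS reads of Ctrl replicate 2 give a 95% Poisson interval of 356 to 415 RPM, and the 640 reads of *Kmt5b* sKO replicate 2 give 391 to 457 RPM, and these intervals overlap. Such intervals cover counting error only. *Cdkn1a* was the most transcribed CDK inhibitor gene by far, and its mean gene body value exceeded those of 99.7% of the genes tested. An isoform that starts 2793 nt further upstream runs through both regions, and its reads cannot be separated from those of the listed isoform.

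**Figure D1:**
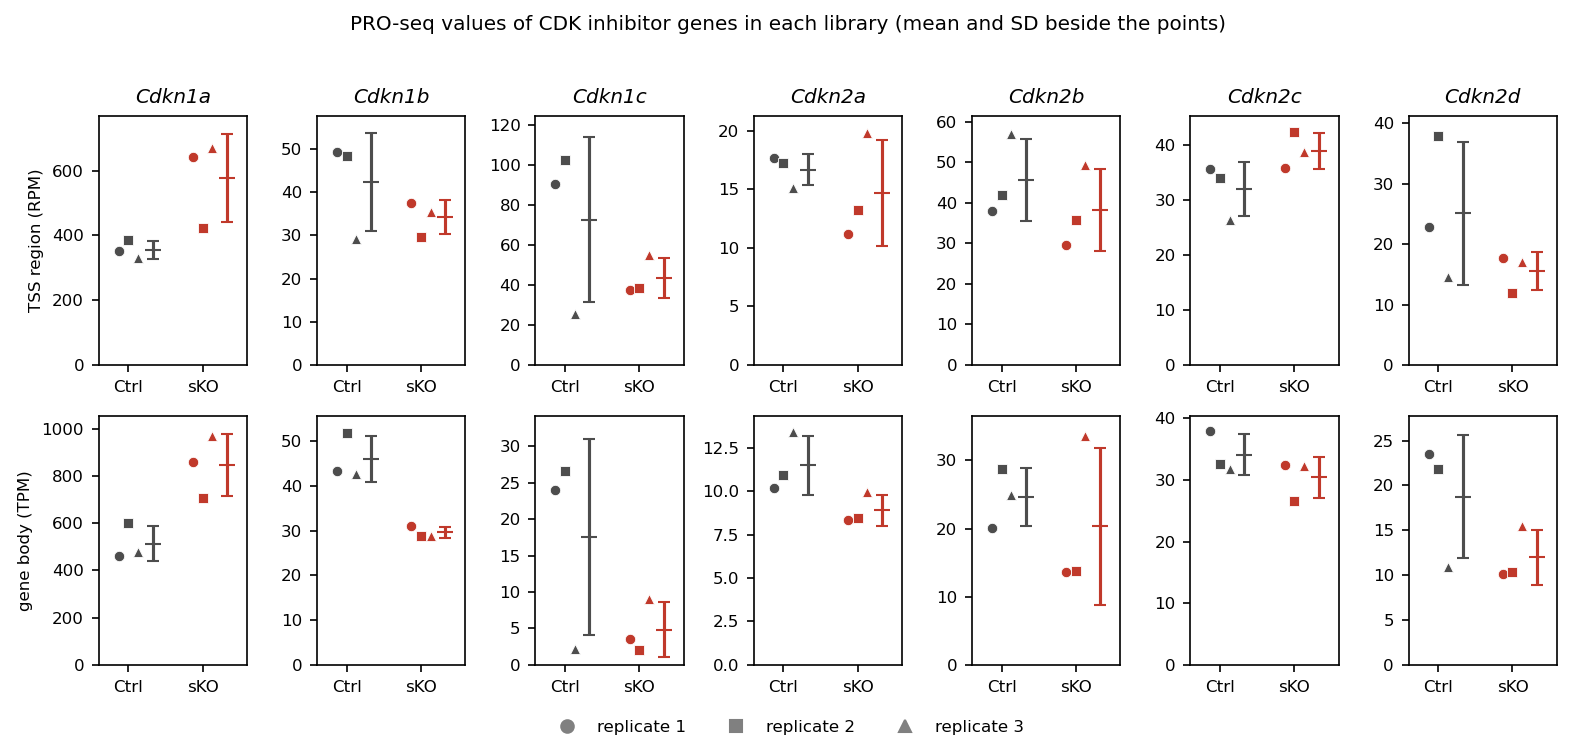
PRO-seq values of the 7 CDK inhibitor genes in each of 3 Ctrl (grey) and 3 *Kmt5b* sKO (red) libraries, as RPM in the TSS region (upper row) and TPM in the gene body (lower row), with the mean and SD beside the points and a linear scale per gene that starts at 0. In the gene body *Cdkn1a* is higher in all 3 sKO libraries (706 to 969 against 462 to 600.3 TPM), *Cdkn1b* is lower in all 3 (28.8 to 31.1 against 42.8 to 51.8 TPM), and *Cdkn1c* has 1 Ctrl library, replicate 3, at the level of the sKO libraries.

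*Cdkn1b* encodes p27, which restrains cyclin E and cyclin A complexes with CDK2. It lies at chr6:134920401-134925513 on the plus strand of GRCm38. In the gene body the Ctrl libraries gave 43.2, 51.8 and 42.8 TPM, against 31.1, 28.8 and 28.9 TPM for the sKO libraries. All *Kmt5b* sKO libraries lay below all Ctrl libraries, as for 9.34% of the genes, and they lay close together. *Cdkn1b* fell by 0.62 on the log2 scale (standard error 0.13, 95% interval -0.92 to -0.32), from 45.9 ± 5.10 to 29.6 ± 1.29 TPM (SD, n = 3), and was called with an adjusted p of 0.0806 from limma. It was the only CDK inhibitor gene called in the gene body, 1 of 7, where 2.99% of all genes were called and 1.38% were called lower. It was called with edgeR (adjusted p = 0.0696) and DESeq2 (adjusted p = 0.0108) as well. The call was lost when any library other than Ctrl replicate 3 was left out (adjusted p between 0.143 and 0.257 from limma) and at a threshold of 0.05, while the log2 fold change stayed between -0.67 and -0.53. Over 16 alternatives its adjusted p ranged from 0.0108 to 0.282.

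The TSS region of *Cdkn1b*, which lies within the untranslated part of its first exon, did not separate the genotypes. The Ctrl libraries gave 49.4, 48.3 and 29.2 RPM, against 37.4, 29.7 and 35.4 RPM for the sKO libraries. Ctrl replicate 3 was the lowest library of all. The log2 fold change was -0.27 (standard error 0.26, 95% interval -0.82 to 0.27), with an adjusted p of 0.800 from limma, and became -0.51 without Ctrl replicate 3 (adjusted p = 0.443). Whether gene body and TSS region changed unequally is asked by the pausing index, the TSS value divided by the gene body value, whose absolute level depends on how both regions were scaled. For *Cdkn1b* an index of 0.918 ± 0.230 (Ctrl) stood against 1.15 ± 0.106 (*Kmt5b* sKO; SD, n = 3), a log2 difference of 0.35 (standard error 0.28) that did not pass the test.

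Because both genes were measured in the same libraries, their ratio does not depend on how libraries were scaled. *Cdkn1a* exceeded *Cdkn1b* in the gene body 10.7-, 11.6- and 11.2-fold in single Ctrl libraries, against 27.6-, 24.5- and 33.5-fold for sKO libraries. The Ctrl libraries, replicate 3 included, were nearly alike in this ratio (11.1 ± 0.446, SD, n = 3), and all *Kmt5b* sKO libraries lay far above them (28.5 ± 4.58, SD, n = 3). At the TSS the Ctrl libraries had ratios of 7.14, 7.98 and 11.3, and the sKO libraries of 17.2, 14.2 and 18.9. The ratio was formed with the directions of both genes known and was therefore not tested.

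**Figure D2:**
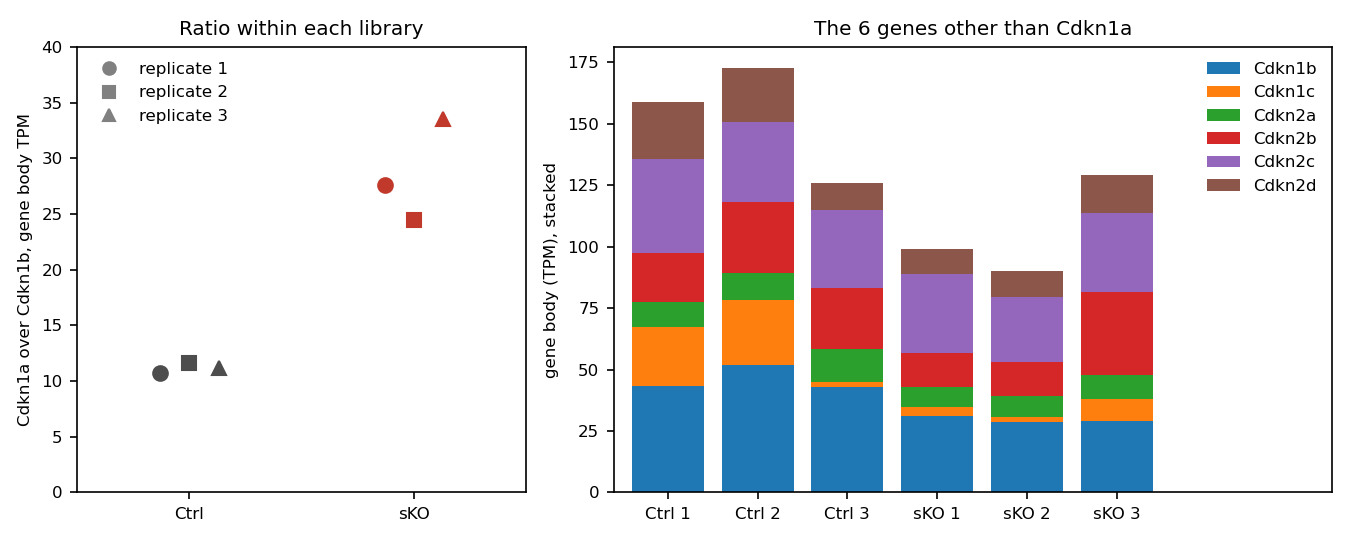
Left, the ratio of the *Cdkn1a* to the *Cdkn1b* gene body value (TPM over TPM) within each of 3 Ctrl (grey) and 3 *Kmt5b* sKO (red) libraries on a linear axis from 0: the Ctrl libraries lie between 10.7 and 11.6, the sKO libraries between 24.5 and 33.5. Right, gene body values (TPM) of the other 6 CDK inhibitor genes stacked per library, with totals between 126 and 173 TPM in Ctrl and between 90.0 and 129 TPM in sKO libraries.

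*Cdkn1c*, the imprinted gene of p57, lies at chr7:143458342-143461050 on the minus strand of GRCm38 and has the shortest gene body of the 7, with 2308 nt. Its gene body gave 24.0, 26.6 and 2.12 TPM for Ctrl, against 3.51, 1.98 and 9.08 TPM for sKO libraries. Ctrl replicates 1 and 2 were high, and Ctrl replicate 3 was as low as the *Kmt5b* sKO libraries. These values rest on 81, 70 and 7 reads in Ctrl and on 9, 3 and 20 reads in *Kmt5b* sKO libraries, and the 7 reads of Ctrl replicate 3 give a 95% Poisson interval of 0.852 to 4.37 TPM, well below the other Ctrl libraries. The log2 fold change of -1.40 was the largest of the 7 in size, but its standard error was 0.92 and its 95% interval ran from -3.55 to 0.76 (adjusted p = 0.541 from limma). Without Ctrl replicate 3 it was -2.50, with an adjusted p of 0.0641 from limma.

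The TSS region of *Cdkn1c* showed the same split among the Ctrl libraries, with 90.3, 102 and 25.4 RPM for Ctrl against 37.4, 38.3 and 55.2 RPM for sKO libraries. The log2 fold change was -0.52 (standard error 0.37) with an adjusted p of 0.688 from limma, and -1.15 with an adjusted p of 0.0332 without Ctrl replicate 3. *Cdkn1c* had far more signal at the TSS than in the gene body. Its geometric mean pausing index over the 6 libraries was 7.75, higher than in 97.6% of 11698 genes, whereas the median gene had 1.53 and *Cdkn1a* 0.686. Single libraries had an index of 3.76, 3.84 and 12.0 (Ctrl) and of 10.6, 19.3 and 6.08 (*Kmt5b* sKO).

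Among the INK4 genes, *Cdkn2a* and *Cdkn2b* lie next to each other on the minus strand of chromosome 4, 11636 nt apart. *Cdkn2a* gives rise to p16INK4a and, from an upstream first exon, to p19ARF, which stabilises p53 by binding MDM2. The table lists the ARF transcript (chr4:89274541-89294653 of GRCm38), so its TSS region reports on the ARF start only. The INK4a transcript starts 12461 nt downstream inside the gene body, which is 97.1% intronic, so the gene body value counts polymerases from both starts.

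In the *Cdkn2a* gene body the Ctrl libraries gave 10.2, 10.9 and 13.4 TPM, against 8.35, 8.44 and 9.94 TPM for the sKO libraries. All *Kmt5b* sKO libraries lay below all Ctrl libraries, as for 9.34% of the genes, and the gap was narrow. The log2 fold change was -0.34 (standard error 0.16, 95% interval -0.72 to 0.03) and did not pass the test (adjusted p = 0.364 from limma). At the ARF start the values overlapped, with 17.7, 17.2 and 15.2 RPM for Ctrl against 11.2, 13.2 and 19.8 RPM for sKO libraries and -0.21 as log2 fold change (adjusted p = 0.884, limma). *Cdkn2a* was the least transcribed of the 7 in Ctrl gene bodies, at 11.5 ± 1.68 TPM (SD, n = 3).

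*Cdkn2b*, the gene of p15 and a known target of TGF-beta signalling, lies at chr4:89306289-89311032. Its gene body gave 20.2, 28.7 and 25.0 TPM for Ctrl, against 13.7, 13.7 and 33.6 TPM for sKO libraries. *Kmt5b* sKO replicates 1 and 2 were the lowest of the 6 libraries and *Kmt5b* sKO replicate 3 was the highest. Its log2 fold change by limma was -0.39 (standard error 0.35, with adjusted p = 0.669), and -0.81 without *Kmt5b* sKO replicate 3 (adjusted p = 0.238). TSS values ranged from 38.0 to 57.0 RPM in Ctrl and from 29.5 to 49.2 RPM in *Kmt5b* sKO MuSCs and overlapped (log2 fold change -0.27, adjusted p = 0.801 from limma).

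*Cdkn2c*, the gene of p18, lies at chr4:109660876-109667189 on the minus strand of GRCm38. At the TSS the Ctrl libraries gave 35.6, 33.9 and 26.3 RPM, against 35.7, 42.3 and 38.6 RPM for the sKO libraries. All *Kmt5b* sKO libraries lay above, as for 10.2% of the genes, although *Kmt5b* sKO replicate 1 exceeded Ctrl replicate 1 by little. The log2 fold change of 0.29 (standard error 0.24) had an adjusted p of 0.758 from limma. In the gene body, values of 37.9, 32.7 and 31.8 TPM (Ctrl) overlapped with those of 32.4, 26.6 and 32.3 TPM (*Kmt5b* sKO), and limma gave -0.17 on the log2 scale (adjusted p = 0.646). The pausing index was higher in all *Kmt5b* sKO libraries, at 1.30 ± 0.258 against 0.934 ± 0.105 (SD, n = 3), as for 5.93% of the genes. This log2 difference of 0.46 (standard error 0.26) did not pass the test. A shorter isoform starts 1817 nt downstream of the listed start, and another RefSeq start lies 433 nt downstream of the listed start. These starts lie beyond the TSS region, inside the gene body. The TSS value of *Cdkn2c* thus does not cover them, and its pausing index counts polymerases from them as gene body.

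*Cdkn2d*, the gene of p19INK4d, lies at chr9:21288410-21291308 on the minus strand of GRCm38. Its gene body gave 23.5, 21.8 and 10.9 TPM for Ctrl, against 10.1, 10.4 and 15.5 TPM for sKO libraries. As for *Cdkn1c*, Ctrl replicates 1 and 2 were high and Ctrl replicate 3 lay among the *Kmt5b* sKO libraries. Its log2 fold change by limma was -0.58 (standard error 0.31, with adjusted p = 0.441) and became -0.92 without Ctrl replicate 3, where it passed the test (adjusted p = 0.0765). At the TSS the Ctrl libraries gave 22.8, 37.9 and 14.6 RPM and the sKO libraries 17.7, 11.9 and 17.0 RPM. They overlapped, and a log2 fold change of -0.59 did not pass (adjusted p = 0.588, limma).

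**Figure D3:**
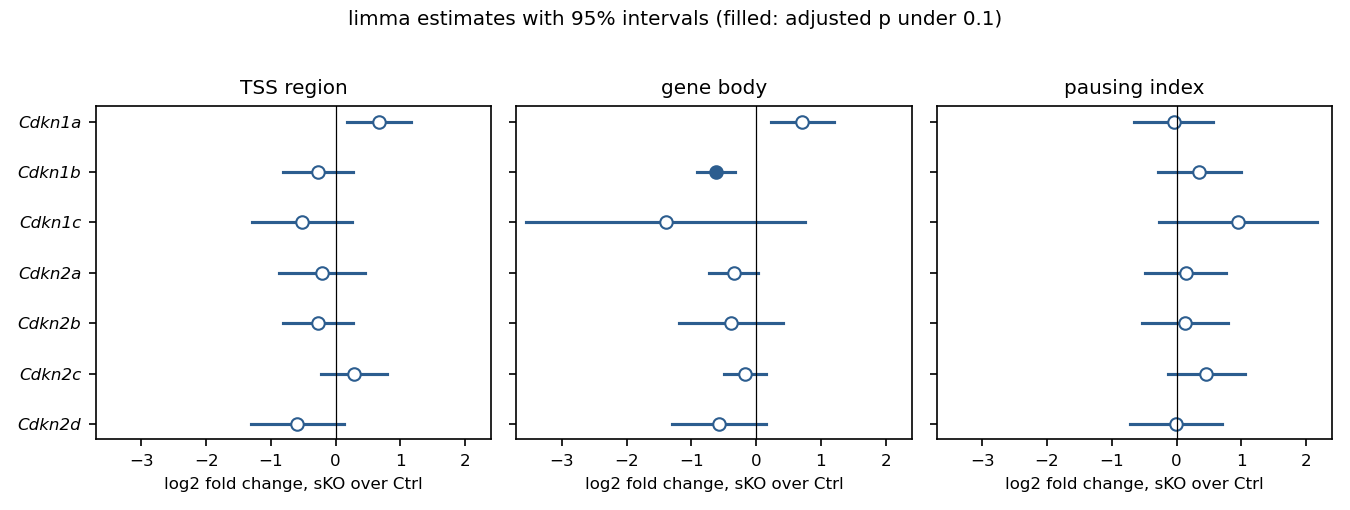
Log2 fold changes of *Kmt5b* sKO over Ctrl from limma (points) with 95% intervals (lines) for the 7 CDK inhibitor genes in the TSS region, the gene body and the pausing index. The filled point, *Cdkn1b* in the gene body at -0.62, is the only difference with an adjusted p under 0.1, and the interval of *Cdkn1c* in the gene body, -3.55 to 0.76, is the widest.

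Over the family, 0 of 7 genes were called in the TSS region, where 1.66% of all genes were called, and 0 of 7 for the pausing index, where 0% of 11698 genes were called (452 had an unadjusted p under 0.05, none of them a CDK inhibitor gene). In the gene body 6 of the 7 genes had a negative log2 fold change, against 46.2% of all genes, and the median of the 7 was -0.39 against 0.023 over all genes. In the TSS region 5 of the 7 were negative, against 41.8% of all genes, with a median of -0.27 against 0.081, and none had all *Kmt5b* sKO libraries below all Ctrl libraries, as 5.33% of all genes had. Since *Cdkn1a* outweighs the other genes, the summed gene body value of the family still was 666 ± 93.0 TPM in Ctrl and 951 ± 151 TPM in *Kmt5b* sKO MuSCs (SD, n = 3). Without *Cdkn1a* it was 153 ± 24.0 and 106 ± 20.6 TPM, and the ranges overlapped. *Cdkn1a* made up between 74.4% and 79.1% of the sum in Ctrl and between 88.2% and 89.7% in *Kmt5b* sKO libraries.

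Levels per length in the gene body were also ordered within each genotype. In Ctrl MuSCs *Cdkn1a* was followed by *Cdkn1b* (45.9 TPM), *Cdkn2c* (34.2 TPM), *Cdkn2b* (24.6 TPM), *Cdkn2d* (18.8 TPM), *Cdkn1c* (17.6 TPM) and *Cdkn2a* (11.5 TPM). Of these neighbours, *Cdkn1a* lay above *Cdkn1b*, *Cdkn1b* above *Cdkn2c* and *Cdkn2c* above *Cdkn2b* in every Ctrl library, whereas the ranges of *Cdkn2b*, *Cdkn2d* and *Cdkn1c* overlapped, and so did those of *Cdkn1c* and *Cdkn2a*. In *Kmt5b* sKO MuSCs *Cdkn2c* (30.4 TPM) and *Cdkn1b* (29.6 TPM) had overlapping ranges, followed by *Cdkn2b* (20.3 TPM), *Cdkn2d* (12.0 TPM), *Cdkn2a* (8.91 TPM) and *Cdkn1c* (4.86 TPM), each overlapping with the next except *Cdkn2d* and *Cdkn2a*.

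**Figure D4:**
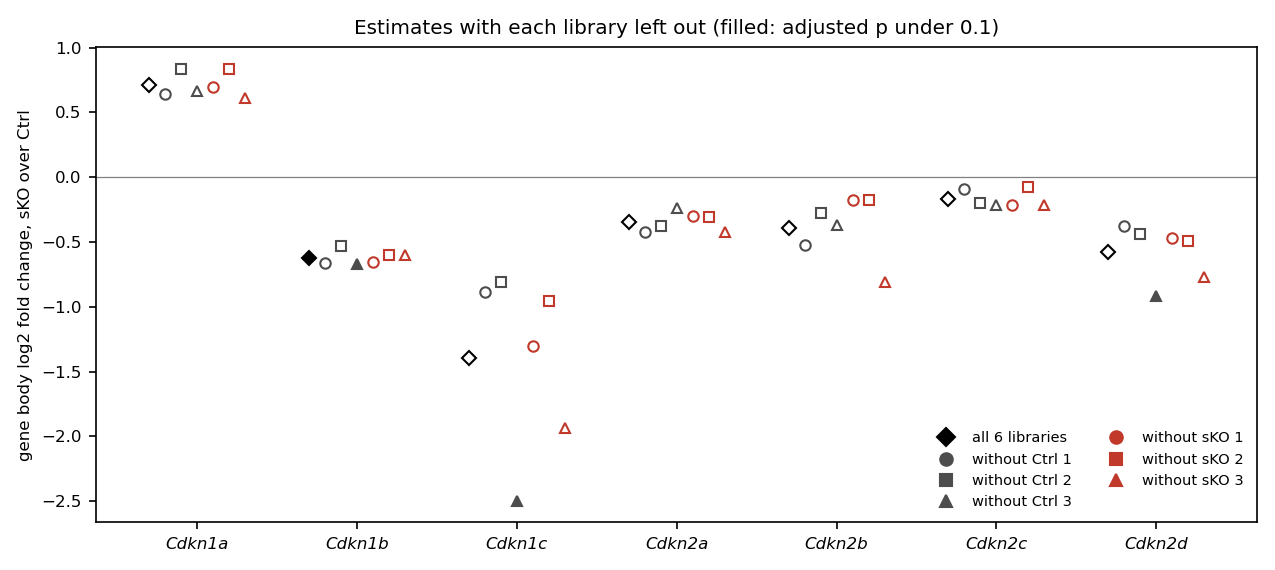
Gene body log2 fold changes of *Kmt5b* sKO over Ctrl for the 7 CDK inhibitor genes with all 6 libraries (diamonds) and with each Ctrl (grey) or sKO (red) library left out; filled symbols have an adjusted p under 0.1 from limma. *Cdkn1a* stays between 0.61 and 0.84 and *Cdkn1b* between -0.67 and -0.53, whereas *Cdkn1c* moves to -2.50 and *Cdkn2d* to -0.92 without Ctrl replicate 3.

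The kinases that CDK inhibitors act on and the cyclins that activate them were examined next. This list and those below were chosen with earlier results of these data known. Of 9 such genes 2 were called in the gene body, both lower in *Kmt5b* sKO MuSCs, where 1.38% of all genes were called lower. *Ccna2*, the cyclin of S phase, fell by 1.31 on the log2 scale, from 62.5 ± 14.6 to 24.6 ± 2.51 TPM, and *Ccne2*, an E-type cyclin of the G1/S transition, fell by 1.03, from 20.1 ± 1.90 to 9.84 ± 2.74 TPM (SD, n = 3; adjusted p = 0.0610 and 0.0895 from limma). In the TSS region *Ccna2* and *Ccne1* were called, also lower, where 0.731% of all genes were called lower. The median of the 9 gene body changes was -0.14. Of the 11 pocket proteins and E2F factors, which pass the activity of these kinases on to transcription, 1 was called in the gene body: *Rbl1*, the gene of p107, fell by 0.69, from 14.0 ± 1.18 to 8.51 ± 1.10 TPM (adjusted p = 0.0948 from limma). *E2f3* and *E2f7* were called lower in the TSS region.

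Regulators of the CDK inhibitor genes were listed as activators, and as repressors or factors that degrade the proteins. Of the 12 activators tested 9 had a positive gene body log2 fold change and 3 a negative one, with a median of 0.10. Of the 15 repressors and degraders 4 were positive and 11 negative, with a median of -0.13. Among all genes tested 46.2% were negative, and the median was 0.023. Over all genes 1.61% were called higher and 1.38% lower in the gene body, and 0.932% and 0.731% in the TSS region. Of 14 activators 13 were listed and 12 tested, and only *Trp63*, a relative of p53, was called in the gene body, with 0.27, 0.88 and 0.82 TPM for Ctrl against 1.98, 3.84 and 7.60 TPM for sKO libraries (log2 fold change 1.99, adjusted p = 0.0985 from limma). It was called higher in the TSS region too. Its Ctrl gene body values were near the 0.5 added before log2. It had no pausing index, which was formed only for genes with no 0 among their values. The sizes of its log2 fold changes thus depend on the added 0.5. *Trp53* itself held 67.0 ± 2.86 TPM in Ctrl and 56.4 ± 6.33 TPM in *Kmt5b* sKO gene bodies (adjusted p = 0.410 from limma). Of 15 repressors of these genes and factors that degrade their proteins, 1 was called: *Dtl*, the substrate adaptor through which p21 is degraded in S phase, fell by 0.91, from 18.9 ± 1.66 to 9.96 ± 1.92 TPM (SD, n = 3; adjusted p = 0.0746 from limma), and was called lower in the TSS region too.

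Other p53 targets with a role in arrest were compared with *Cdkn1a*. Of 14, 13 were tested, 10 had a positive gene body log2 fold change and 3 were called, all higher in *Kmt5b* sKO MuSCs. Over all genes 46.2% had a negative gene body log2 fold change, 1.61% were called higher and 1.38% lower. *Mdm2*, the ubiquitin ligase that degrades p53, rose by 0.94 on the log2 scale, from 117 ± 21.9 to 223 ± 14.5 TPM. *Ccng1*, cyclin G1, rose by 0.81, from 45.6 ± 6.10 to 80.6 ± 13.6 TPM, and *Trp53inp1*, a p53-induced nuclear protein, rose by 1.27, from 18.2 ± 6.09 to 43.3 ± 5.95 TPM (SD, n = 3; adjusted p = 0.0679, 0.0798 and 0.0750 from limma). The median of the 13 was 0.55. At the TSS 1 of the 13, *Ccng1*, was called, also higher, where 0.932% of all genes were called higher. Of the 18 genes of S phase and mitosis, all 18 had a negative log2 fold change and 7 were called lower in the gene body: *Bub1*, *Cdk1*, *Mcm3*, *Mcm5*, *Mcm6*, *Pcna* and *Top2a*. Their changes ranged from -1.44 for *Bub1*, a mitotic checkpoint kinase, to -0.76 for *Mcm6*, a subunit of the replicative helicase, and the median of the 18 was -0.95. At the TSS 5 of the 18 were called, all lower, where 0.731% of all genes were called lower: *Birc5*, *Mcm5*, *Mcm7*, *Pcna* and *Top2a*. The gene body calls in these lists were lost with Ctrl replicate 1 or any single *Kmt5b* sKO library left out, as were those of all genes (0 called by limma, with 1374 to 1706 at an unadjusted p under 0.05). Of the cell type markers 23 passed the filter, and 0 were called by limma in either region. At the TSS 8 of the 23 had an unadjusted p under 0.05 from limma, against 11% of all genes. Over gene bodies 5 of the 23 had one, against 15.9% of all genes.

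**Figure D5:**
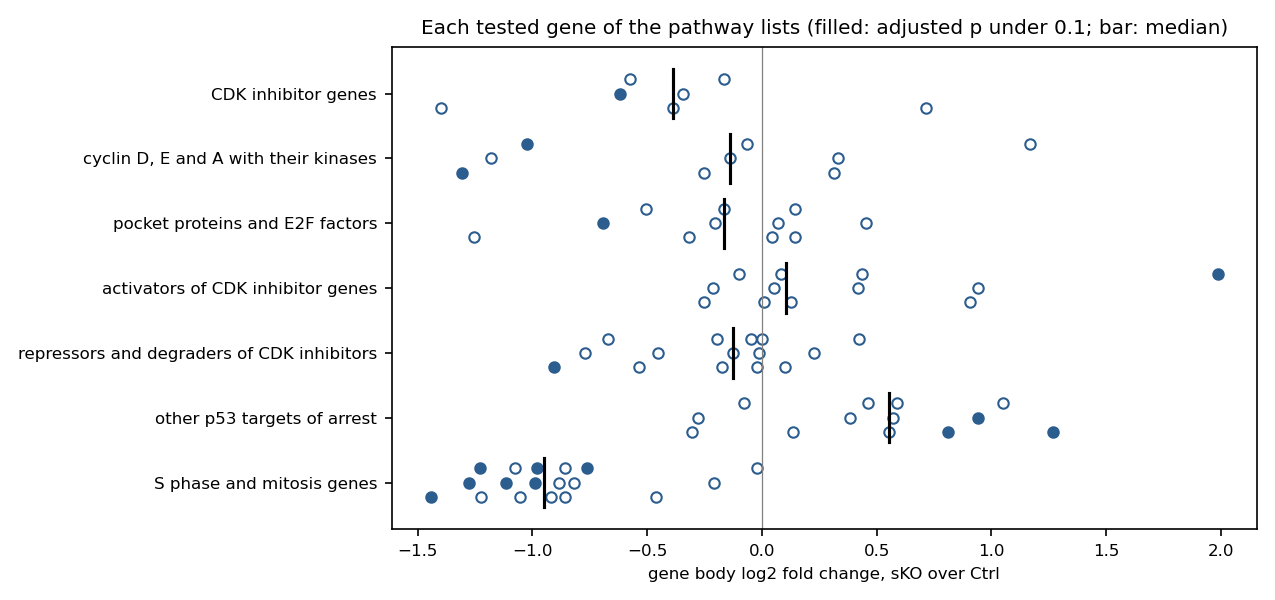
Gene body log2 fold changes of *Kmt5b* sKO over Ctrl for each tested gene (circles) of the CDK inhibitor family and of 6 related lists, with the median as a bar; filled circles have an adjusted p under 0.1 from limma, and vertical offsets only separate the points. The median is 0.55 for other p53 targets, -0.39 for the CDK inhibitor genes and -0.95 for genes of S phase and mitosis.

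The nearest listed genes on either side were examined to set their values beside those of the family. In the gene body 2.99% of all genes were called, and 1.38% were called lower. All *Kmt5b* sKO libraries lay above all Ctrl libraries for 12% of the genes and below them for 9.34%. *Gpr19*, a receptor gene 22476 nt from *Cdkn1b* and on the opposite strand, was called lower in *Kmt5b* sKO MuSCs, with gene body values between 8.84 and 10.8 TPM in Ctrl and between 5.37 and 5.76 TPM in *Kmt5b* sKO libraries (log2 fold change -0.72, standard error 0.15, adjusted p = 0.0822 from limma). *Apold1*, on the other side of *Cdkn1b*, had a log2 fold change of 0.05 (adjusted p = 0.971). Next to *Cdkn1a*, *Rab44* lay higher in all *Kmt5b* sKO libraries without being called (log2 fold change 0.92, adjusted p = 0.176) and *Srsf3* had a log2 fold change of -0.12 (adjusted p = 0.741). None of the other tested neighbours, *Nap1l4*, *Mtap*, *Rnf11*, *Faf1*, *Kri1* and *Slc44a2*, was called, and *Kcnq1* and *Elavl2* were below the filter on low values. *Kri1* begins 441 nt beyond the end of *Cdkn2d* on the same strand.

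For each gene the 1 or 2 tested genes with the most similar gene body profile over the 6 libraries are given, by Pearson correlation of log2(TPM + 0.5) among 10189 genes with a mean of at least 5 TPM. These were *Tor3a* and *Myot* for *Cdkn1a* (r = 0.999 and 0.998), *Ift140* and *Zfp39* for *Cdkn1b* (0.995 and 0.990), and *Rnf126* and *Cercam* for *Cdkn1c* (0.997 and 0.995). For the INK4 genes they were *Ubxn2b* and *Strip2* for *Cdkn2a* (0.991 and 0.980), *Yod1* for *Cdkn2b* (0.974), *Snx1* for *Cdkn2c* (0.994), and *Notch2* and *Lnx2* for *Cdkn2d* (0.997 and 0.996). No CDK inhibitor gene was among the 2 closest of another. As the best of many genes over only 6 libraries that share genotype and depth, these values are a description. Correlations within the family, likewise a description, ran from -0.769 (*Cdkn1a* with *Cdkn1b*) to 0.974 (*Cdkn1c* with *Cdkn2d*).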

How the data were processed

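PRO-seq of 3 Ctrl and 3 *Kmt5b* sKO MuSC samples was analysed, grouped by the labels. Per the labels and methods, the authors used FastQC 0.11.8, Trimmomatic 0.39, STAR 2.6.1d (GRCm38, 1 random position per multi-mapping read, which leaves paralogous sequence uncertain) and Picard 2.18.16 (duplicate removal), counted sense-strand reads, and chose the isoform with the highest TSS mean. The deposited TSS values are RPM, although headed TPM, since all TSS regions have 400 nt. The deposited gene body values are TPM. No column of per-sample values was left unused. Both units are scaled to a fixed total per library, so a change of total transcription cannot appear.

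X and Y genes and genes with a mean under 0.5 in either region were left out. log2(value + 0.5), or log2 of the pausing index without pseudocount (only genes with no 0 among their values), was tested with limma 3.58.1 (lmFit, eBayes with a trend, R 4.3.3), with a term for genotype alone. Whole reads were recovered from the steps between values (100% of low values within 0.1 read, in gene bodies under 2000 nt for the body) and tested with edgeR 4.0.16 and DESeq2 1.42.0 as alternatives. Other alternatives were the pseudocount, the filter, X and Y, the trend, quantile normalization, median centring, a replicate block, leaving out each library, and a threshold of 0.05. The tests were tried on simulated data. Exons were taken from GENCODE M21 and promoters from RefSeq. Python 3.11.15 was used for the rest.

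Named were the 7 genes, *Kmt5b*, nearest neighbours, closest profiles (2 a gene, of which some are not reported here) and called list members. *Trp53*, the TSS calls and the neighbours' and markers' values given beside them go beyond this. The CDK inhibitor genes and all lists were chosen with earlier results of these data known.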

Additional observations from a re-analysis of the deposited data

How the results depend on the processing

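All 7 gene body and all 7 TSS log2 fold changes kept their direction under every alternative run. Of 315 alternative values over genes and regions, 294 kept direction and side of the threshold, 5 newly passed, 6 no longer passed and 10 changed sign. The sign changes were all in the pausing index with a library left out, where log2 differences ran from -0.12 to 0.044 for *Cdkn1a*, -0.043 to 0.27 for *Cdkn2a*, -0.053 to 0.36 for *Cdkn2b* and -0.23 to 0.20 for *Cdkn2d*. The number of CDK inhibitor genes called in the gene body, 1 of 7, became 2 (*Cdkn1a* and *Cdkn1b*) with edgeR and 2 with DESeq2, 0 at a threshold of 0.05, and 0 to 3 with a library left out, the 3 being *Cdkn1b*, *Cdkn1c* and *Cdkn2d* without Ctrl replicate 3. In the TSS region it was 0 to 1 (*Cdkn1c* without Ctrl replicate 3). With a replicate block it was 0 in the gene body (*Cdkn1b* adjusted p = 0.282), and over all genes 0 were called in either region (1141 at the TSS and 1441 over gene bodies at an unadjusted p under 0.05). Deviations from the group mean had correlations from -0.33 to -0.03 between samples with the same number, and no sample correlated best with its own number. With 3 libraries per group these deviations sum to 0 within a group. The correlations therefore cannot decide whether samples with the same number were prepared together.

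Over all genes, 207 calls in the TSS region became 0 without the filter (1448 at an unadjusted p under 0.05), 0 without the trend (1292), 64 at a threshold of 0.05, and 1 (without Ctrl replicate 1) to 408 (without Ctrl replicate 2) with a library left out (16, 132 and 46 without *Kmt5b* sKO replicates 1, 2 and 3). The 372 calls in the gene body became 748 with edgeR, 1296 with DESeq2, 1 at a threshold of 0.05, and 0 (without Ctrl replicate 1 or any *Kmt5b* sKO library) to 836 (without Ctrl replicate 3). The pausing index gave 1 call with a pseudocount of 0.5 on both values. The cause of these moves was not tested. The depth limits *Cdkn1c* most, whose gene body held between 3 and 81 reads per library.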
